A study of Mus musculus with 10 samples.

Results

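The genes described here are 50 genes of DNA replication and S phase, chosen by their symbols: helicase, origin, polymerase, clamp, chromatin and replication checkpoint genes. All 50 were found among the 50559 genes counted in each of the 10 libraries, and all 50 passed the filter on low counts, which left 29952 genes. RNA was sequenced from formalin-fixed, paraffin-embedded (FFPE) tissue of 4 MYC/SMARCA4 tumors, 3 P7 cerebella and 3 SHH medulloblastomas (SHH MB) of mice. The tumors grew in cerebella of CD1nu/nu hosts, which are immunodeficient, after transplantation of granule cell precursors (GCPs). These GCPs came from Math1-creERT2::Smarca4fl/fl pups that had received tamoxifen and were exposed to a lentiviral vector for murine Myc and GFP. By the study's methods they were transplanted unsorted, so the cells that carried the vector or had lost Smarca4 were a part of the graft. In the tumors that grew, the paper reports that staining for SMARCA4 was lost in all tumor cells. It also reports GFP staining that was uniformly high, MYC staining that varied and Ki67 staining by which the tumors were highly proliferative. The labelled ages of tumors 1 to 4 were 112, 96, 89 and 79 days. The P7 cerebella were whole cerebella of Math1-creERT2::Smarca4fl/fl mice aged 7 days given tamoxifen (0.4 mg) at postnatal day 3, so that an induced deletion of Smarca4 in part of the Math1 lineage is shared by the transplanted cells and the control cerebella. The SHH MB came from Math1-cre::Smofl/wt mice with a labelled age of 7 days and their label names no Smarca4 allele. Cre was driven by Math1 in both mouse lines, which limits recombination to cells that express it and their descendants. A tissue punch holds all cells in its area, host cells included, and in such bulk samples fewer cycling cells and less RNA per cell cannot be told apart.

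Before S phase, origins are licensed: the origin recognition complex, Cdc6 and Cdt1 load the hexameric MCM helicase, and geminin (Gmnn) blocks Cdt1 from loading it again. The kinase Cdc7 with its activator Dbf4, together with Mcm10, treslin (Ticrr), Cdc45 and the GINS complex, turns the loaded helicase into a moving fork, where polymerase alpha with primase starts and polymerases delta and epsilon extend the new strands. Most of these genes are transcribed at the border of G1 and S phase under E2F factors, and in the first postnatal week the cerebellum of the mouse holds a layer of dividing GCPs.

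Libraries held between 5663491 and 9352109 counts, and the floor of 3 counts corresponded to between 0.304 and 0.737 CPM, counts scaled to library size by TMM factors. The members together took 0.0573% of the counts in tumor 1, between 0.262% and 0.432% in tumors 2 to 4, between 0.154% and 0.184% in cerebella and between 0.316% and 0.326% in SHH MB. Counts of single members ranged from 8 to 347 in tumor 1 and from 27 to 2713 in the other libraries, so levels in tumor 1 are the least precise. Counts of Myc, from the construct and the endogenous gene together, were 614, 2043, 11342 and 8326 in tumors 1 to 4, between 91 and 131 in cerebella and between 247 and 322 in SHH MB. Counts of Smarca4 over the whole gene, not scaled to library size, were 841, 1355, 971 and 1950 in the tumors, between 1814 and 2584 in cerebella and between 3510 and 4163 in SHH MB. In log2 CPM, Smarca4 was at 7.69, 7.92, 7.08 and 7.88 in the tumors. It was between 7.78 and 8.13 in cerebella and between 8.93 and 9.19 in SHH MB. On this scale tumors 2 and 4 lay within the range of the cerebella. These counts do not resolve the deleted part of the gene. Tumor 1 stood apart from the other tumors, and the counts of calls and the median fold changes of each comparison are given with and without it. It had the lowest TMM factor, 0.622, and 10.7% of its counts on mitochondrial and rRNA-like genes, against between 1.70% and 5.11% in the other libraries. Of the defining markers, granule cell precursor genes had a summed level between 2441 and 2830 CPM in cerebella and SHH MB and between 916 and 2385 CPM in the tumors, with none of the 10 at 0 in any library. The sum of 2385 CPM, that of tumor 1, came from unequal genes. Their counts there ran from 2 for Atoh1, under the floor of 3, and 5 for Mycn to 3630 for Zic1.

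The mean log2 CPM over the 50 replication genes was 3.70, 5.63, 5.67 and 6.004 in tumors 1 to 4, 4.79, 4.44 and 4.56 in the 3 cerebella, and 5.44, 5.48 and 5.52 in the 3 SHH MB. By this mean tumors 2 to 4 lay above every cerebellum and every SHH MB, and tumor 1 lay below every other library. Cerebella and SHH MB did not overlap. The median SD of a member on the log2 scale was 0.97 over the 4 tumors, 0.26 over tumors 2 to 4, 0.24 over the cerebella and 0.12 over the SHH MB.

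**Figure D1:**
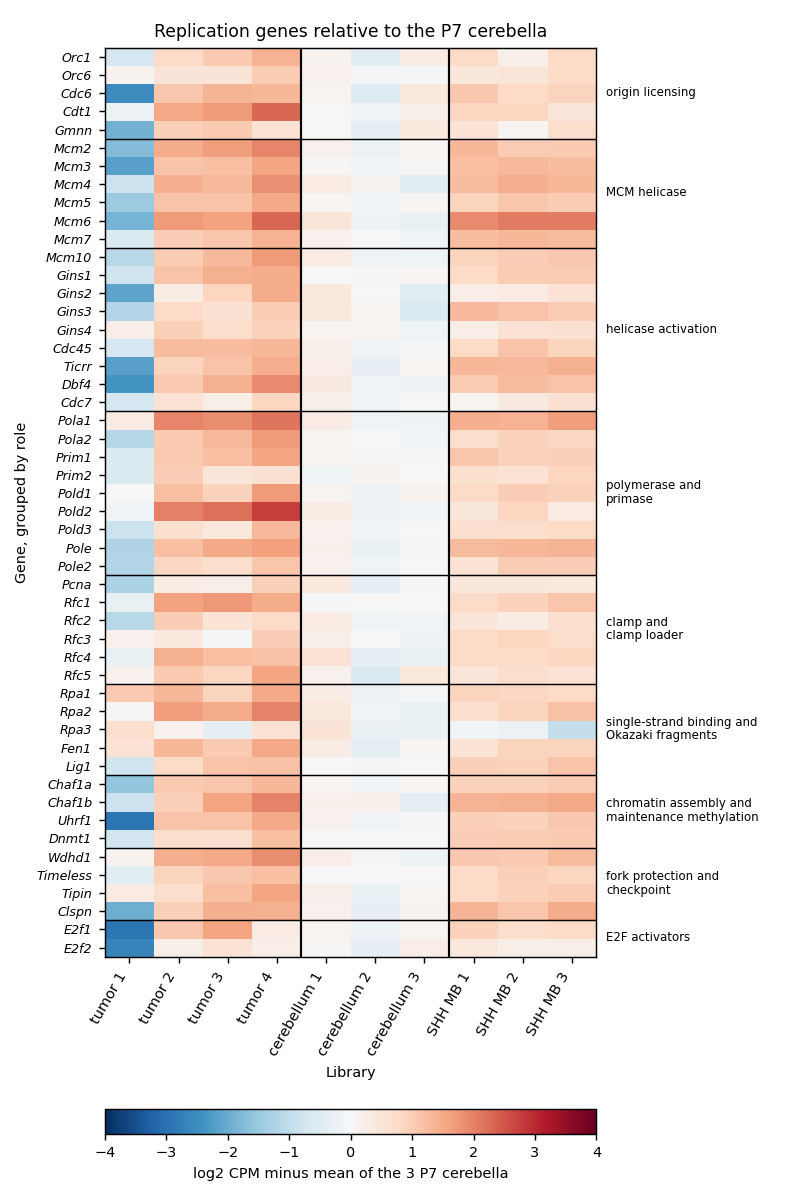
Heat map of 50 replication genes in rows, grouped by role, and 10 libraries in columns, with the color giving log2 CPM minus the mean of the 3 P7 cerebella. Tumors 2 to 4 are above all cerebella in 45 of 50 rows, beside 17.6% of all genes. The 3 SHH MB are above all cerebella in 43 of 50 rows, beside 17.8% of all genes. Tumor 1 is below all 3 cerebella in 36 of 50 rows, beside 46.7% of all genes.

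Mcm2 to Mcm7 encode the 6 subunits of the replicative helicase. Mcm2 had 16.0, 149, 173 and 209 CPM in tumors 1 to 4, 59.98, 45.7 and 56.4 CPM in cerebella, and 135, 109 and 112 CPM in SHH MB. For this subunit tumors 2 to 4 exceeded all other libraries, while tumor 1 was the lowest of the 10. Mcm3 had 9.09, 92.4, 96.1 and 125 CPM in the tumors, 43.5, 38.9 and 42.9 CPM in cerebella, and 97.0, 102 and 97.6 CPM in SHH MB. Here tumors 2 and 3 were just below the SHH MB and tumor 4 was above them. Mcm4 had 20.4, 102, 91.3 and 131 CPM in the tumors, 45.8, 40.5 and 26.7 CPM in cerebella, and 87.2, 100.03 and 92.1 CPM in SHH MB. Tumor 3 lay among the SHH MB, and tumors 2 and 4 were above them. Mcm5 had 18.7, 115, 116 and 150.0 CPM in the tumors, 55.2, 46.2 and 55.3 CPM in cerebella, and 97.0, 113 and 106 CPM in SHH MB. As with Mcm2, tumors 2 to 4 were above all other libraries. Mcm6 had 13.8, 166, 156 and 247 CPM in the tumors, 71.1, 43.7 and 41.2 CPM in cerebella, and 186, 215 and 208 CPM in SHH MB. Of the 6 subunits it had the largest fitted difference between SHH MB and cerebella, 1.96 on the log2 scale. Mcm7 had 35.9, 108, 117 and 142 CPM in the tumors, 61.0, 53.2 and 48.7 CPM in cerebella, and 129, 135 and 131 CPM in SHH MB. The difference between tumor 1 and the other tumors, -1.75 on the log2 scale, was the smallest of the 6 subunits, and tumor 1 was still the lowest library.

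**Figure D2:**
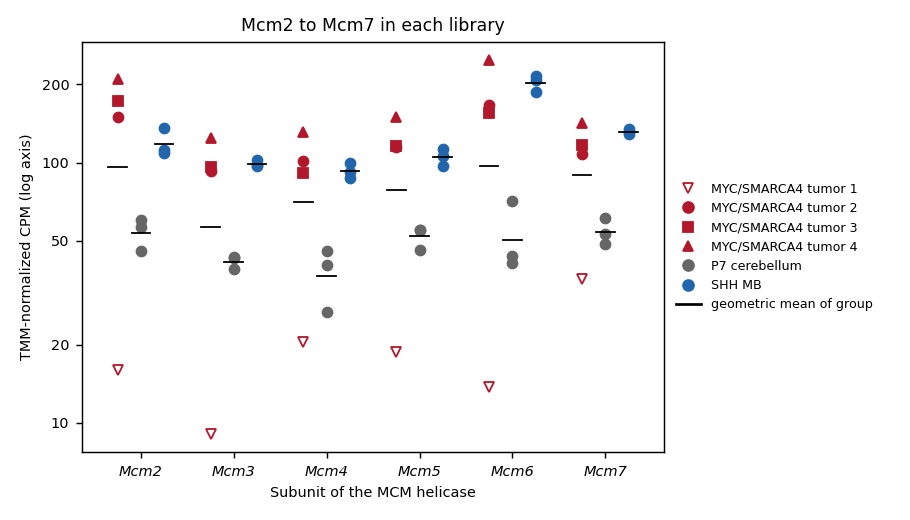
TMM-normalized CPM of Mcm2 to Mcm7 on a log axis, with a point per library and a bar for the geometric mean of each group. For all 6 genes tumor 1 (open triangle, 9.09 to 35.9 CPM) is the lowest of the 10 libraries, and tumors 2 to 4 lie above all 3 cerebella.

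Since longer genes collect more reads, subunits were compared per length, as RPKM, which divides CPM by the length of the merged exons in kilobases. Mcm6 had the highest mean level of the 50 genes in tumors, with 26.8 ± 17.9 RPKM (SD, n = 4), and in SHH MB, with 37.4 ± 2.76 RPKM (SD, n = 3). The tumors differed in this order. Mcm6 was the highest in tumors 2 and 4, with 30.6 and 45.5 RPKM, it had rank 3 in tumor 3, with 28.6 RPKM beside 33.6 RPKM for E2f1 and 32.9 RPKM for Rfc1, and rank 26 in tumor 1, with 2.53 RPKM. In tumor 1 the highest were Rpa3 with 10.96 RPKM and Rpa1 with 10.8 RPKM. Over tumors 2 to 4 the mean of Mcm6 was 34.9 ± 9.21 RPKM (SD, n = 3), again the highest. In cerebella it was the seventh with 9.57 ± 3.06 RPKM (SD, n = 3), and the highest was the maintenance methyltransferase Dnmt1 with 16.6 RPKM. In SHH MB the 6 subunits ranged from 15.0 RPKM for Mcm2 to 37.4 RPKM for Mcm6. Mcm2, Mcm3, Mcm4 and Mcm5 lay within 15.0 to 17.4 RPKM there, so their order is close to the spread between libraries. Orc1, the largest subunit of the origin recognition complex, had the lowest mean of the 50 genes in all 3 groups, with 2.59 RPKM in tumors (3.16 RPKM over tumors 2 to 4), 1.51 RPKM in cerebella and 2.28 RPKM in SHH MB. Ranks between genes depend on the transcript taken as the length. With the canonical transcript in place of the merged exons, Mcm6 was again the highest in tumors and SHH MB, but Mcm2 moved from rank 12 to rank 4 in SHH MB and the lowest gene was Gins2.

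The comparison of MYC/SMARCA4 tumors with P7 cerebella asked how far the tumors differ from the tissue that holds their cells of origin. Of the 50 replication genes, 6 rose in the tumors at an adjusted p of at most 0.05 in edgeR, while 3.99% of all genes tested were called higher, and 0 were called lower, against 2.27% of all genes. The 6 were Rpa1, Rpa2, Pola1, Pold2, Fen1 and Wdhd1, genes of the single-strand binding complex, the polymerases, Okazaki fragment maturation and fork protection. The fitted change was upward for 49 of 50 members, with 48.1% of all genes fitted upward. The median log2 fold change of the members was 0.93, beside -0.05 over all genes tested. At an unadjusted p under 0.05, 26 of 50 members were higher (15.3% of all genes) and 0 lower (9.98%). The study itself used stricter limits, 2.5 for the size of the log2 fold change and 0.01 for the adjusted p. Under these limits edgeR called 0 members higher (0.0901% of all genes) and 0 lower (0.2%), and also 0 in either direction against SHH MB (0.124% and 0.477%) and for SHH MB against cerebella (0.01% and 0%). DESeq2 called 11 members higher at an adjusted p of at most 0.05, beside 9.29% of all genes, and limma on the authors' VST values 2, Rpa1 and Pola1, beside 1.2%. Neither called a member lower, beside 4.08% and 1.23% of all genes. In the groups' own values, 5 of 50 members had all 4 tumors above all 3 cerebella, namely Pola1, Tipin, Fen1, Gins4 and Rpa1, beside 10.3% of all genes, and 0 had them all below (10.7%).

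Among the 6 genes that rose, Rpa1, the large subunit of the replication protein A that coats single-stranded DNA, had 85.3, 103, 76.6 and 119 CPM in tumors 1 to 4 and 49.9, 35.2 and 39.2 CPM in cerebella, with 76.8, 72.9 and 70.7 CPM in SHH MB. All 4 tumors were above all cerebella, tumor 1 included. The log2 fold change was 1.21 ± 0.25 (SE), with an adjusted p of 0.0191 in edgeR. Pola1, the catalytic subunit of polymerase alpha, had 46.9, 143, 136 and 164 CPM in tumors and 46.9, 33.8 and 31.8 CPM in cerebella, with 101, 98.3 and 118 CPM in SHH MB. Tumor 1 was level with the highest cerebellum at this rounding, and the other tumors were above all cerebella. Its log2 fold change was 1.71 ± 0.38 (SE), with an adjusted p of 0.0239 in edgeR. Pold2, a regulatory subunit of polymerase delta, had 16.7, 75.5, 85.1 and 127 CPM in tumors and 22.8, 16.0 and 17.0 CPM in cerebella. Tumor 1 lay among the cerebella, and tumors 2 to 4 were above them. The fitted fold change of 4.09, or 2.03 ± 0.51 (SE) on the log2 scale, was the largest of the members, with an adjusted p of 0.0354 in edgeR. Fen1, the flap endonuclease that trims Okazaki fragments, had 31.4, 52.3, 43.4 and 59.9 CPM in tumors and 25.5, 16.0 and 22.2 CPM in cerebella, without overlap, and 30.9, 38.9 and 38.9 CPM in SHH MB. Its log2 fold change was 1.14 ± 0.29 (SE), with an adjusted p of 0.0368 in edgeR. Wdhd1, which links the helicase to polymerase alpha, had 34.1, 84.6, 89.1 and 112 CPM in tumors and 37.2, 29.1 and 26.6 CPM in cerebella, with 64.8, 63.1 and 74.5 CPM in SHH MB. Rpa2, the middle subunit of replication protein A, had 15.5, 48.5, 42.6 and 60.4 CPM in tumors and 20.1, 13.4 and 12.4 CPM in cerebella, with 23.6, 28.0 and 34.4 CPM in SHH MB. Wdhd1 had a log2 fold change of 1.37 ± 0.35 (SE) and Rpa2 of 1.45 ± 0.40 (SE), with adjusted p of 0.0397 and 0.0498 in edgeR. In both, tumor 1 lay within the range of the cerebella and tumors 2 to 4 above it.

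Tumor 1 was left out here with its values seen. It was the lowest tumor in 47 of 50 members, beside 28.5% of all genes, so more calls follow in part from that choice. Without tumor 1, 40 of 50 members were called higher, where 9.64% of all genes tested were called higher, and 0 were called lower (6.11%). The median log2 fold change of the members was then 1.14, beside -0.25 over all genes. In 45 of 50 members tumors 2 to 4 were all above all 3 cerebella, against 17.6% of all genes, and in 0 all below (15.8%). The exceptions were Gins2, Pcna, Rfc3, Rpa3 and E2f2. The calls also rested on other libraries: in the fit without tumor 4, or with any single cerebellum left out, 0 members were called, without tumor 2 only Rpa1 was called, and with any single SHH MB left out only Rpa1 and Pola1. A fit of only the tumors and cerebella called 0 members, beside 0.206% of all genes called higher and 0.607% lower.

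All 6 MCM subunits were fitted higher in the tumors than in the cerebella, with log2 fold changes from 0.89 for Mcm7 to 1.49 for Mcm6, and 0 of them were called. Without tumor 1 all 6 were called, with fold changes on the log2 scale between 1.08 and 1.77. Of the 5 licensing genes 0 were called. Cdt1 had the largest difference of these, 1.59 ± 0.45 (SE) with an adjusted p of 0.0529 in edgeR, and geminin the smallest, 0.52 ± 0.51 (SE). Without tumor 1, 3 of the 5 were called, and Orc6 and Gmnn were not. Among the 9 genes of helicase activation, fitted log2 fold changes ranged from 0.35 for the kinase Cdc7 to 1.10 for its activator Dbf4. Of these 9, 0 were called with all libraries and 6 without tumor 1.

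The 9 polymerase and primase genes held 2 of the 6 calls, with log2 fold changes from 0.48 for the primase subunit Prim2 to 2.03 for Pold2, and 8 of the 9 were called without tumor 1. In the clamp and its loader 0 of 6 genes were called with all libraries and 4 without tumor 1. The clamp Pcna, a common marker of proliferating cells, had the smallest difference, 0.22 ± 0.40 (SE) on the log2 scale, and Rfc1, the large subunit of the clamp loader, the largest, 1.33 ± 0.40 (SE). Single-strand binding and Okazaki fragment genes held 3 of the 6 calls, and their range ran from 0.28 for Rpa3 to 1.45 for Rpa2. Without tumor 1, 4 of these 5 were called, and Rpa3 was fitted at 0.03. Of the 4 chromatin genes, from Dnmt1 at 0.61 to the assembly factor subunit Chaf1b at 1.24, 0 were called with all libraries and all 4 without tumor 1. The 4 fork protection genes ranged from 0.82 for Timeless to 1.37 for Wdhd1, with 1 called and all 4 called without tumor 1. The transcription factor E2f1 had a difference of 0.69 ± 0.63 (SE), and E2f2, with -0.01 ± 0.51 (SE), was the only member fitted lower. Without tumor 1 the difference was 1.003 ± 0.28 (SE) for E2f1, with an adjusted p of 0.0309 in edgeR, and 0.27 ± 0.21 (SE) for E2f2, so that all 50 members were then fitted higher. The share of all genes fitted higher was not computed for that fit, and their median log2 fold change was -0.25.

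**Figure D3:**
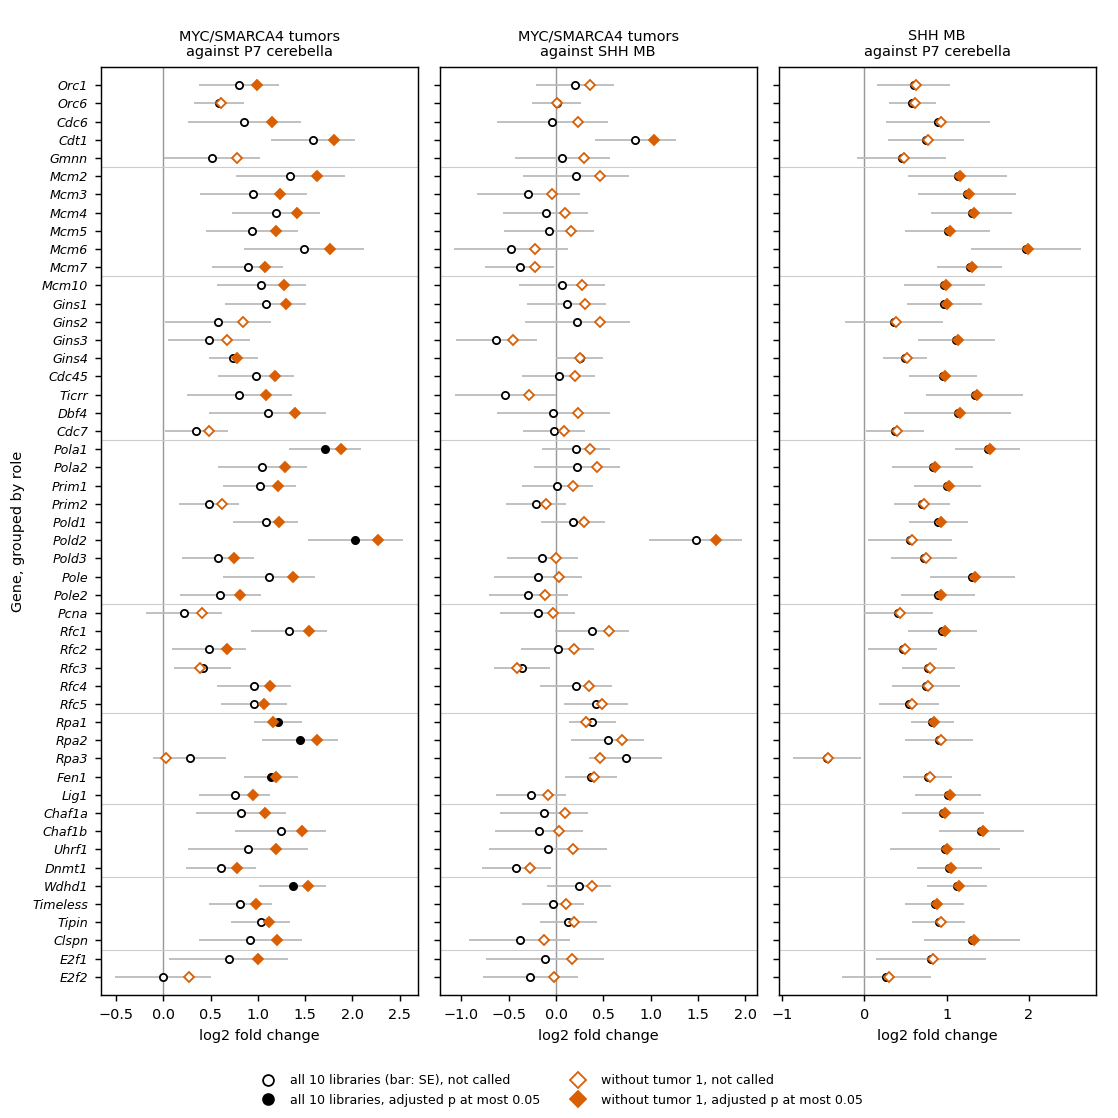
Fitted log2 fold change of each of the 50 genes in the 3 comparisons, with all 10 libraries (circles, bars show SE) and without tumor 1 (diamonds); filled symbols have an adjusted p of at most 0.05 in edgeR. Against P7 cerebella 6 circles and 40 diamonds are filled, where 3.99% and 9.64% of all genes were called higher. Against SHH MB 0 circles and 2 diamonds are filled (2.43% and 5% of all genes). For SHH MB against P7 cerebella 0 circles and 28 diamonds are filled (0.177% and 2.86%).

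Against SHH MB, a tumor of the same lineage driven by hedgehog signaling, 0 of 50 members were called higher, beside 2.43% of all genes tested, and 0 lower, beside 2.26%. At an unadjusted p under 0.05, 1 member, Pold2, was higher (12.7% of all genes) and 0 lower (7.09%). DESeq2 called 1 higher, again Pold2 (7.87%), and 0 lower (4.09%), and limma on the authors' VST values 0 in either direction (0.692% higher and 1.21% lower). A fit of only these groups called 0 members, beside 0.337% of all genes higher and 1.15% lower. The fitted direction was upward for 25 members, beside 50.4% of all genes, and downward for 25. Without tumor 1 it was upward for 37 and downward for 13. The share of all genes fitted upward was not computed for that fit, and their median log2 fold change was -0.15. With all libraries the median log2 fold change of the members was -0.01, beside 0.01 over all genes. Over the 4 tumors none of the members was free of overlap with SHH MB in either direction, beside 7.83% of all genes higher and 8.3% lower. Of the MCM subunits 5 of 6 were fitted lower than in SHH MB, from -0.48 ± 0.60 (SE) for Mcm6, and Mcm2 was fitted at 0.21 ± 0.56 (SE). Without tumor 1, 3 of the 6 were fitted lower, since Mcm4 and Mcm5 turned to 0.09 and 0.15. All 4 chromatin genes were fitted lower, from -0.42 for Dnmt1 to -0.09 for Uhrf1, but without tumor 1 only Dnmt1 was, at -0.27, and Uhrf1 was fitted at 0.18. The lowest value of all was that of the GINS subunit Gins3, -0.63 ± 0.43 (SE), and the highest that of Pold2, 1.47 ± 0.49 (SE), with an adjusted p of 0.113 in edgeR.

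Without tumor 1, 2 members were called higher than in SHH MB, Pold2 and Cdt1, where 5% of all genes tested were called higher. The 2 members are 4% of the 50, a share below that background, and 0 were called lower (4.75%). Pold2 had 25.3, 33.8 and 23.1 CPM in SHH MB, against 75.5, 85.1 and 127 CPM in tumors 2 to 4 and 16.7 CPM in tumor 1. Its log2 fold change without tumor 1 was 1.69 ± 0.25 (SE), with an adjusted p of 0.0011 in edgeR. Cdt1 had 15.7, 54.3, 60.1 and 92.5 CPM in tumors 1 to 4, 33.6, 33.8 and 26.2 CPM in SHH MB, and 18.1, 16.2 and 21.4 CPM in cerebella. For this gene tumors 2 to 4 were above all other libraries, and tumor 1 was the lowest of the 10. Without tumor 1 the log2 fold change was 1.03 ± 0.23 (SE), with an adjusted p of 0.0115 in edgeR. Both were picked with their values in view. In 17 of 50 members tumors 2 to 4 were all above all SHH MB, beside 13.7% of all genes, and in 0 members all below, beside 11.7%. With tumor 1 left out, the median over the members was 0.18, beside -0.15 over all genes.

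SHH MB and P7 cerebella have the same labelled age and differ in genotype and in the tamoxifen given to the cerebella. In SHH MB against P7 cerebella 0 of 50 members were called higher when all 10 libraries shared an estimate of the spread, beside 0.177% of all genes, and 0 lower, beside 0.0467%. At an unadjusted p under 0.05, 22 of 50 members were higher (5.16% of all genes) and 0 lower (3.64%), DESeq2 called 1 higher, Pola1 (1.72%), and limma on the authors' VST values 0 (0.128%), with 0 lower in both (0.669% and 0.0173%). The fitted direction was upward for 49 members, beside 43.8% of all genes. The groups' own values did not overlap in 43 of 50 members, all with SHH MB higher, beside 17.8% of all genes, and 19% of all genes had SHH MB lower without overlap. In a fit of only these 2 groups, 44 of 50 members were called higher, where 13.4% of all genes were called higher, and 0 lower, beside 10.3%. Without tumor 1, the 3 groups together called 28 of 50, beside 2.86% of all genes, and 0 lower, beside 1.19%. The size of the differences hardly depended on the fit, with a median log2 fold change of 0.90 in all libraries, 0.93 without tumor 1 and 0.92 in the 2 groups alone. Their standard errors did: for Mcm6 the value was 1.96 ± 0.67 (SE) in the fit of all libraries and 1.98 ± 0.15 (SE) in that of the 2 groups. The median SDs of a member, given above, were 0.97 over the MYC/SMARCA4 tumors, which enter the joint estimate of the spread, and 0.24 and 0.12 over the cerebella and SHH MB compared.

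The largest difference of each role in SHH MB over cerebella was that of Mcm6 among the helicase subunits, Ticrr (1.34) in helicase activation, Pola1 (1.498) among the polymerases, Chaf1b (1.42) among chromatin genes, Clspn (1.31), which activates the checkpoint kinase at stalled forks, in fork protection, Lig1 (1.02), the ligase of Okazaki fragments, and Rfc1 (0.95) in the clamp loader, all as fitted log2 fold changes. Licensing genes ranged from 0.45 for Gmnn to 0.90 for Cdc6. The members that overlapped were Orc1, Gmnn, Gins2, Cdc7, Rfc2, Rpa3 and E2f2. Rpa3, the small subunit of replication protein A, was the only member fitted lower, at -0.46 ± 0.41 (SE). It had 6.94, 6.43 and 3.80 CPM in SHH MB and 11.1, 6.17 and 6.22 CPM in cerebella, and the groups overlapped. The 3 comparisons share libraries, so their values are not independent of each other.

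Among the 4 MYC/SMARCA4 tumors, tumor 1 was the lowest in 47 of 50 members, while 28.5% of all genes tested were lowest in it. It was below all 9 other libraries in 36 members, beside 18.3% of all genes. Tumor 4 was the highest of all 10 libraries in 38 members, beside 11.5% of all genes. The median difference between tumor 1 and the mean of the other tumors was -1.94 on the log2 scale over the members and 0.02 over all genes. By role, this difference was widest for the E2F activators, with a median of -3.47, and the MCM subunits, with -3.09, and narrowest for single-strand binding and Okazaki fragment genes, with -0.70. The largest single distance was that of Uhrf1, which brings Dnmt1 to newly copied DNA, with 6.63 CPM in tumor 1 and 117, 117 and 151 CPM in tumors 2 to 4, a log2 difference of -4.21. E2f1 followed with -3.91, Dbf4 with -3.83 and Cdc6 with -3.77. At the other end, Rfc3 differed by -0.26, Rpa1 by -0.20 and Rpa3 by 0.59, the only member above the mean of the other tumors in tumor 1. As background, replication protein A also serves DNA repair. The other tumors differed less among themselves, and 46, 47 and 49 of 50 members were above all cerebella in tumor 2, 3 and 4, beside 37.1%, 36.1% and 35.8% of all genes.

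**Figure D4:**
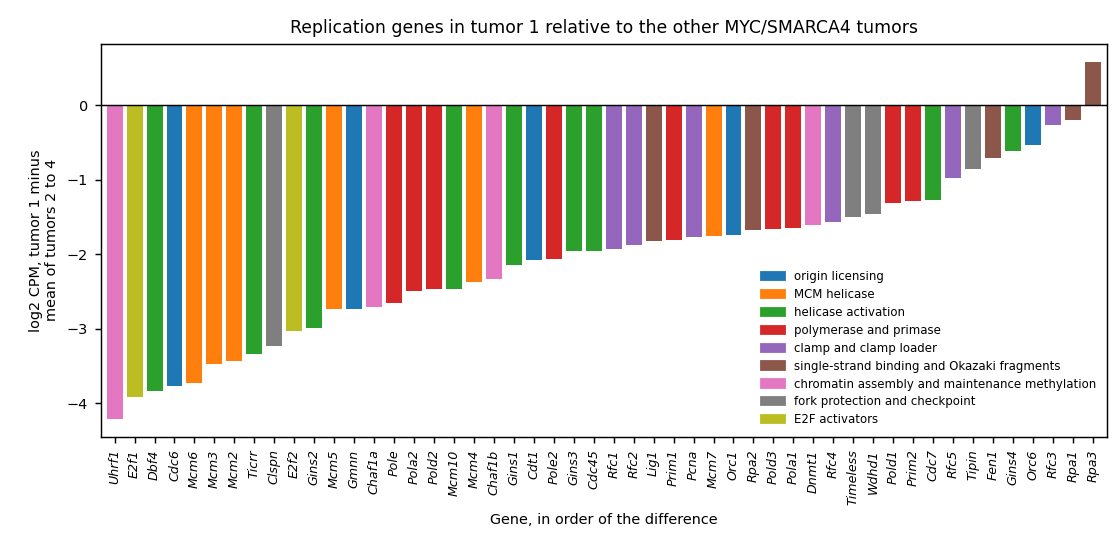
Difference in log2 CPM between tumor 1 and the mean of tumors 2 to 4 for each of the 50 genes, ordered by size and colored by role. The bars run from -4.21 for Uhrf1 to 0.59 for Rpa3, and 49 of 50 are below 0.

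Other measures moved with the replication genes in tumor 1. The 16 mitotic genes, with Mki67, Top2a and Cdk1 among them, had a mean log2 CPM of 2.84 in tumor 1 and between 6.46 and 6.64 in tumors 2 to 4. The mean of the replication genes minus that of the mitotic genes was 0.86 in tumor 1 and between -1.06 and -0.56 in the other 9 libraries, so mitotic genes were further down in tumor 1 than replication genes. Marker genes of mature granule neurons, of which none of the 10 was at 0 in any library, had a summed level of 6818 CPM in tumor 1, between 899 and 3512 CPM in tumors 2 to 4, between 1913 and 2224 CPM in cerebella and between 1229 and 1417 CPM in SHH MB. The 6 Purkinje cell markers summed to 10873 CPM in tumor 1 and to between 335 and 2576 CPM in the other tumors. For the 8 markers of myelinating oligodendrocytes the sums were 3986 CPM in tumor 1 and between 113 and 819 CPM in tumors 2 to 4. Not all marker lists rose in tumor 1. Those of astrocytes and Bergmann glia summed to 1107 CPM there, between 522 and 2769 CPM in tumors 2 to 4 and between 2192 and 2259 CPM in cerebella. Fibroblast and meningeal markers summed to 262 CPM in tumor 1, between 103 and 381 CPM in tumors 2 to 4 and between 334 and 362 CPM in cerebella. Choroid plexus markers were higher in tumor 1 (139 CPM) than in tumors 2 to 4 (39.7 to 92.6 CPM). All 4 tumors were below the cerebella in these (673 to 1284 CPM). Microglia (163 CPM) and endothelial markers (287 CPM) were at their highest in it. None of these markers was at 0 in any library. Tumor 1 had the highest labelled age, 112 days, and the fewest Myc counts of the 4. Of the mature granule neuron markers 4 of 10 were called higher in the tumors than in cerebella, and without tumor 1 4 were called higher and 1 lower. Of the granule cell precursor markers 2 of 10 were called lower, 4 without tumor 1. Over all genes tested 3.99% were called higher and 2.27% lower, and without tumor 1 9.64% and 6.11%. The part of these cells, of age and of Myc in the levels of replication genes was not tested.

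**Figure D5:**
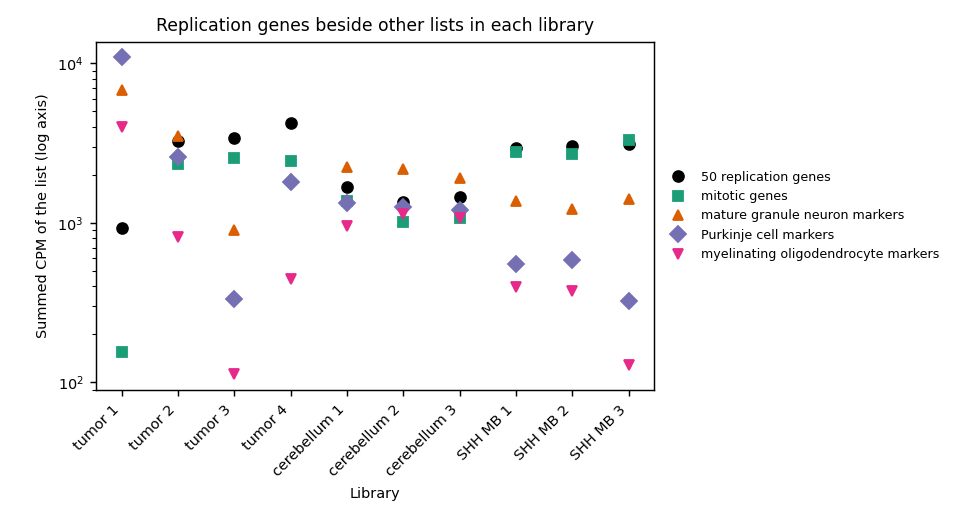
Summed TMM-normalized CPM of the 50 replication genes, mitotic genes and 3 lists of cell type markers in each library, on a log axis. In tumor 1 replication genes (922 CPM) and mitotic genes (156 CPM) are at their lowest and the 3 marker lists at their highest of the 10 libraries.

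Other genes of the pathway were grouped by role in the same way. Of 12 further origin genes, 4 rose in the tumors against cerebella, with a median log2 fold change of 1.01. They were Rif1, which restrains origin firing (1.60, adjusted p of 0.0113 in edgeR), Mcm8, Orc5 and Orc2. Their list had a mean log2 CPM of 5.85 in tumor 1 beside 6.11, 5.88 and 6.29 in tumors 2 to 4. Of 19 further fork genes that passed the filter, 1 rose, the checkpoint kinase gene Atr (1.26, adjusted p of 0.0171 in edgeR), and the list had a median of 0.73. Of 6 nucleotide enzymes 0 were called, with a median of 0.80 and Rrm1, the large subunit of ribonucleotide reductase, at 1.07. Of 7 histone chaperone and S phase chromatin genes 0 were called, with a median of 0.60. Of 17 E2F, RB and S phase regulators 2 rose, cyclin E2 (Ccne2, 1.30) and the phosphatase gene Cdc25a (1.28), with a median of 0.63. Of the 16 mitotic genes 0 were called, with a median of 0.91. Without tumor 1 the counts were 8 of 12, 10 of 19, 5 of 6, 4 of 7, 9 of 17 and 13 of 16, all higher. The median log2 fold change of the origin genes was then lower, at 0.80, and those of the other lists rose to between 0.70 and 1.19. Over all genes tested 3.99% were called higher with all libraries and 9.64% without tumor 1. Against SHH MB 0 genes of these 6 lists were called, and without tumor 1 the calls were Mcm8 (0.94), Chek1 (0.95), Rad1 (1.02) and Tfdp1 (0.87) higher, and E2f7 (-0.65) and Mki67 (-0.85) lower, given as log2 fold changes, where 5% of all genes were called higher and 4.75% lower. The share of these lists that was called higher is close to that background. For SHH MB against cerebella 0 genes of these lists were called, and without tumor 1 the counts were 4, 5, 4, 4, 5 and 11, all higher, beside 2.86% of all genes. In the fit of only these 2 groups they were 11, 9, 5, 6, 15 and 16, beside 13.4% of all genes.

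Promoter sequence was examined because many of these genes are known E2F targets. RefSeq windows on GRCm38.p6 were at hand for 41 of the 50 members, 51 windows of 250 bases before a transcription start. Core letters of E2F sites were searched as exact matches on either strand, with overlapping matches allowed. The core TTCCCGC was present in 21.6% of the windows of members and 3.82% of all 32851 windows, and TTCGCGC in 13.7% and 1.28%. For TTGGCGC the shares were 7.84% and 1.97%, and for TTGCCGC they were 3.92% and 1.36%. At least 1 of these cores was in 39.2% of the windows of members and 7.89% of all windows. The E-box CACGTG, which MYC with MAX can bind, was present in 9.8% and 6.02%, and CCAAT in 56.9% and 33.8%. Windows of members had a median GC content of 61.2%, all windows 52.4%, and the E2F cores consist mostly of G and C. The 5 windows printed here are those of Mcm6, Mcm5 and Pola1, the members with at least 3 matches to an E2F core, and of Mcm2 and Rpa1 without any. Capitals mark the cores, and a longer run of capitals holds overlapping matches on both strands. All are 5′ to 3′ on the strand of the gene, at chr1:128359706-128359955 (-) for Mcm6, chr8:75109259-75109508 (+) for Mcm5, chrX:93632156-93632405 (-) for Pola1, chr6:88898781-88899030 (-) for Mcm2 and chr11:75348384-75348633 (-) for Rpa1.
Mcm6: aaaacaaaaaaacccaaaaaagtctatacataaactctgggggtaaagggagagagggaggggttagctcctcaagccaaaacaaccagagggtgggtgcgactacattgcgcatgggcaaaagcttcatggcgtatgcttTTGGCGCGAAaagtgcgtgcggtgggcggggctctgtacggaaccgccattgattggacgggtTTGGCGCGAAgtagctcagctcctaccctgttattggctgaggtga
Mcm5: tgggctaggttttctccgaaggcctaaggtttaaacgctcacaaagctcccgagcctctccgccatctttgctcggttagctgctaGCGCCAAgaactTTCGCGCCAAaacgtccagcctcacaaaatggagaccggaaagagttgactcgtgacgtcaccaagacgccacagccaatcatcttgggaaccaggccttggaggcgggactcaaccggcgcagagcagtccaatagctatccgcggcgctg
Pola1: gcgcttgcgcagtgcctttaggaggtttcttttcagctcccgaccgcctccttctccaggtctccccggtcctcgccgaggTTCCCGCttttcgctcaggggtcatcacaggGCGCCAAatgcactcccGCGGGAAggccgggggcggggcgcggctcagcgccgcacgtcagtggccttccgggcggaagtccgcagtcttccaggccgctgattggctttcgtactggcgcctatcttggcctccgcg
Mcm2: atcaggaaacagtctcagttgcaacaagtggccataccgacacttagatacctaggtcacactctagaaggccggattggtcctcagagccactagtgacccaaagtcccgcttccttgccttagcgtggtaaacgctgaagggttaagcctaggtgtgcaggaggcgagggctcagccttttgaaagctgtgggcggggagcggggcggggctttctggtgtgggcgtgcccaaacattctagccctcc
Rpa1: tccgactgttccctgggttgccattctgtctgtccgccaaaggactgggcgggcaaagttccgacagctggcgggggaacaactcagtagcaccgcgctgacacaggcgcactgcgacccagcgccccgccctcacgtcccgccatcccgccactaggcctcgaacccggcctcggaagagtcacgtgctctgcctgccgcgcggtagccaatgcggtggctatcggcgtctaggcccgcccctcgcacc

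In the 18 members with an E2F core the median difference between tumor 1 and the other tumors was -1.75 on the log2 scale, in the 23 members with a window and no core -2.06, and the ranges, -4.21 to 0.59 and -3.91 to -0.20, overlapped. Mcm6, with 4 matches, and Mcm2, with 0, differed by -3.73 and -3.44. The median log2 fold changes against cerebella were 0.89 and 0.96 in these sets. A match describes letters in a window and not a bound site. The windows end at an annotated start, which need not be the main one, and members differ in their number of windows. A member without a core in its windows may hold one elsewhere.

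The genes lie on 17 chromosomes of GRCm39, by GENCODE. Pold2, which had the largest fold change, spans chr11:5822180-5828292 on the minus strand with 11 exons in its canonical transcript, and no annotated gene overlaps it. Rpa1 spans chr11:75188992-75239455 on the minus strand and is overlapped by Smyd4 on the opposite strand, Fen1 spans chr19:10176479-10182097 on the minus strand with Tmem258 on the opposite strand, and Pola1 spans chrX:92348365-92675813 on the minus strand. Mcm7 spans chr5:138162844-138170684 on the minus strand and holds Mir106b, Mir25 and Mir93 on its own strand, with Ap4m1 and Cops6 on the opposite strand. In all, 29 of the 50 members overlap another annotated gene on either strand. Whether counting used the strand is not given in the sources used here, so reads in these overlaps may be shared between genes.

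Some partners differed from each other within a library, pairs chosen after their values were seen. A further pair, Pole2 to Pole, had log2 ratios from -3.34 to -2.50 in tumors, which overlapped both cerebella and SHH MB. Tumor 1 had 10 counts of Gmnn, 20 of E2f1 and 16 of E2f2, so its ratios with these genes are imprecise. The log2 ratio of Cdt1 to its inhibitor Gmnn was 2.55, 1.51, 1.54 and 2.63 in tumors 1 to 4, 0.88, 1.11 and 0.72 in cerebella and 1.21, 1.66 and 0.70 in SHH MB. The tumors were above the cerebella without overlap and overlapped with SHH MB. The log2 ratio of Pold2 to the catalytic subunit Pold1 was -0.79, 0.15, 0.59 and 0.38 in tumors, between -0.92 and -0.49 in cerebella and between -1.28 and -0.79 in SHH MB. In this ratio tumors 2 to 4 were above all other libraries, and tumor 1 was among the cerebella. E2f1 relative to E2f2 was 0.30, 1.40, 1.55 and 0.62 in tumors, between 0.36 and 0.70 in cerebella and between 1.04 and 1.12 in SHH MB, so tumors 1 and 4 lay below all SHH MB in this ratio while tumors 2 and 3 exceeded all other libraries.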

How the data were processed

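RNA of 10 FFPE samples of mice was extracted, depleted of ribosomal RNA, made into CORALL total RNA libraries and sequenced as single-end reads. Per the submitters' processing notes and the methods, the authors used FastQC 0.73, Trimmomatic 0.38.1, STAR 2.7.8a, the genome build GRCm39 and featureCounts 2.0.1, and deposited raw, unnormalized counts of each gene. Log2-scale values of 46123 genes, deposited by the authors too, came from the variance stabilization (VST) in DESeq2 (Galaxy version 2.11.40.7), and the authors tested with limma.

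Libraries were grouped by their labels. Counts were tested here with the quasi-likelihood test of edgeR 4.0.16 in R 4.3.3, as a single fit of all 10 libraries with a mean per group, TMM factors, filterByExpr by group and non-robust estimation. P-values were adjusted by the Benjamini-Hochberg method over all 29952 genes tested. Levels are TMM-normalized CPM, and log2 CPM has a prior count of 2. The total counts gave floors of 3 counts that cover counting error only. P-values measure the spread between these samples, whose labels do not name separate animals or litters. Between replicates, counts differed by more than sampling noise, which cannot show that the libraries are separate animals. The tumors differ in labelled age. Each library was taken as a sample.

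The members and lists were chosen with earlier results of these data known. Values in every library are given for Mcm2 to Mcm7 and up to 4 members of lowest p called in each direction. Other members are given by role, with the highest and lowest named, and up to 3 genes of each other list by lowest p. Outside this rule, and chosen with their values seen, are the library values of Wdhd1, Rpa2, Cdt1, Uhrf1 and Rpa3, the fourth origin gene, the pairs and the promoters printed. Each library was left out in turn, and the fits without tumor 1 were given in detail after its values were seen. Alternatives were DESeq2 1.42.0, limma 3.58.1 on the deposited log2 (VST) values, RLE factors, library sizes without mitochondrial and rRNA-like genes, no filter, at least 10 counts in every library, only the 2 groups compared, robust estimation, a replicate block, a prior count of 0.5, each library left out, and, added after seeing the data, canonical lengths. The tests were run on simulated data first. Positions are from GENCODE M39.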

Additional observations from a re-analysis of the deposited data

Results flagged for a closer look

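In 17 of the 50 replication genes, tumor 1 was so far below the other 3 MYC/SMARCA4 tumors that its gap to the nearest of them, as a share of the whole range of the 4, exceeded Dixon's critical value of 0.829. Chance flags about 1 in 20 groups; over all genes tested 6.38% were flagged and 4.12% with the lowest tumor apart. The share of the range was 0.921 for Cdc6, 0.84 for Gmnn, 0.868 for Mcm2, 0.885 for Mcm3, 0.872 for Mcm5, 0.839 for Mcm6, 0.855 for Gins1, 0.948 for Cdc45 and 0.841 for Ticrr. It was 0.849 for Pola1, 0.84 for Pole, 0.881 for Rfc1, 0.862 for Rfc4, 0.899 for Chaf1a, 0.915 for Uhrf1, 0.853 for Clspn and 0.895 for E2f2. In each of them tumor 1 was the lowest library of its group. Tumor 1 also had the highest summed levels of Purkinje cell, mature granule neuron and myelinating oligodendrocyte markers, and the part of these in the flags was not tested.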

How the results depend on the processing

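The count of members called higher in MYC/SMARCA4 tumors than in P7 cerebella, 6 of 50, was 11 with DESeq2, 2 with limma on the VST values, 2 with at least 10 counts in every library, 0 in the 2 groups alone, 0 with a replicate block and 0 at an adjusted p of at most 0.01. With each library left out in turn it ranged from 0 to 40, the latter without tumor 1. Against SHH MB the count of 0 became 1 with DESeq2 and ranged from 0 to 2 over the libraries left out, and for SHH MB against P7 cerebella the count of 0 became 1 with DESeq2, 44 in the 2 groups alone, and ranged from 0 to 28, again highest without tumor 1. The cause was not tested. In all 3 comparisons 0 members were called lower under each alternative run. The adjusted p of the 6 called members lay between 0.000132 and 0.269 over their alternatives, and the log2 fold changes kept their sign. Of Mcm2 to Mcm7 and the 6 called members, the genes refitted under every alternative, values reversed only for MYC/SMARCA4 tumors against SHH MB, none past the threshold: Mcm2 with limma (-0.25) and the replicate block (-0.27), and Pola1 (-0.014) and Wdhd1 (-0.0013) with the block. With libraries left out, Mcm2 ranged from -0.020 to 0.47 (below 0 without tumor 3 or 4), Mcm4 from -0.36 to 0.094 and Mcm5 from -0.30 to 0.15 (both above 0 without tumor 1). Over all 50 members, leaving out tumor 1 changed the sign of 12 against SHH MB and of E2f2 against cerebella (-0.01 to 0.27). The labels name no pairs, and same-numbered libraries, which correlated between -0.27 and 0.16, were not treated as pairs. These correlations cannot exclude a shared litter or batch. Left-out libraries moved the median member fold change to between 0.70 and 1.14 against cerebella, -0.21 and 0.18 against SHH MB, and 0.81 and 0.99 between SHH MB and cerebella. With canonical lengths the median level of the members in tumors was 16.8 in place of 8.75 RPKM. Other scalings shifted the median of all genes by at most 0.04 on the log2 scale. Depth limits tumor 1, where single members had as few as 8 counts.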
